A study of Arabidopsis thaliana with 24 samples.

Results

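Transcripts encoded by the mitochondrial genome of Arabidopsis thaliana were followed on Affymetrix ATH1 arrays through phosphate (Pi) starvation in wild type, phr1 and phr1 phl1 plants. The members are the probe sets that the array's annotation matched to mitochondrial genes and to no nuclear gene, 24 of 22746 probe sets, and they name 18 of the 32 protein-coding gene symbols of the mitochondrial genome in RefSeq TAIR10.1. Loci that begin with ATMG were looked for as well in the held part of the study's list of probe sets with Pi starvation data. Of its 1633 rows 0 had one. The held rows give mitochondrial genes by symbol and are not limited to genes that changed. Of the 24 probe sets, 15 read subunits of complex I (7 of them nad1 and 2 of them nad5), 2 read subunits of complex IV, 4 read cytochrome c maturation proteins, and 1 each read the maturase matR, the transporter mttB and the adjacent ribosomal protein genes rps3 and rpl16. A further 11 probe sets were matched to a mitochondrial and a nuclear gene, and 37 carried a mitochondrial name in that list alone. These 48 are described apart, at the end.

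The mitochondrial genome of flowering plants keeps genes for subunits of the respiratory chain complexes and ATP synthase, for the proteins that attach heme to c-type cytochromes, and for part of the mitochondrial ribosome, while most subunits of the same complexes are made from nuclear genes and imported. Nuclear-encoded phage-type RNA polymerases transcribe it, many of its transcripts are spliced by group II intron machinery and edited, and nad1, nad2 and nad5 are assembled from separate precursor RNAs by trans-splicing. PHR1 and PHL1 are MYB transcription factors of the plant nucleus that bind promoters of Pi starvation-responsive genes, and no role of either in mitochondrial transcription is assumed here. In plant mitochondria a poly(A) tail is known as a mark of RNA decay rather than of stable mRNA, and the labelling kit named in the labels primes from oligo(dT), so a signal reads RNA that such priming can reach and not the whole pool of a transcript.

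Plants of the Columbia (Col-0) background were grown for 7 days on solid Johnson medium with 2% sucrose, either with 2 mM Pi (+Pi) or with 0 mM Pi (−Pi), and RNA of shoots and of roots was taken apart. There were 24 arrays in 8 groups of 3 independent replicates: wild type shoots and roots at +Pi, wild type shoots and roots at −Pi, phr1 shoots and roots at −Pi, and shoots and roots labelled phr1 phl1 at −Pi. Neither mutant has arrays at +Pi here, so each mutant was compared with wild type at −Pi, and these wild type arrays serve the Pi comparison and both mutant comparisons. The phl1 line carries a T-DNA insertion, and the values are RMA signals on a log2 scale, 1 for each probe set and array. A difference is given as a log2 fold change, and a member is called higher or lower where limma gave a change over 2-fold with a Benjamini-Hochberg adjusted p under 0.05 over all 22746 probe sets. In tissue samples, fewer mitochondria in a cell, fewer cells of a type and less RNA in each mitochondrion cannot be told apart.

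Correlations between replicate arrays lay between 0.966 and 0.996. SPX1, an inhibitor of PHR1 and a marker of Pi starvation, was higher at −Pi in wild type shoots by 4.44 and in roots by 6.0. PHL1 signal was not lower but stood higher on the arrays that carry the phr1 phl1 label, by 2.72 (standard error 0.298, adjusted p = 4.04e-07) in shoots and 3.51 (standard error 0.298, adjusted p = 5.36e-08) in roots against wild type at −Pi. The place of its probe set with respect to the insertion was not determined, so this does not check the label, and phr1 phl1 stands for the label throughout. Leaf markers, of which 3 of 15 were matched, had a mean signal of 7.43 to 8.22 in the phr1 phl1 roots, against 6.08 to 6.32 in phr1 roots and 5.64 to 6.18 in wild type roots at −Pi, and 12.05 to 12.46 in every shoot array. Of the 77 chloroplast-encoded probe sets, the mean signal was lowest among shoots in replicate 2 of wild type at −Pi, at 7.29 against 9.20 and 9.44 in its 2 partners, and replicate 2 of phr1 stood below its partners too, at 8.37 against 9.82 and 10.12. Both arrays had the highest mean over the 24 members in their group, 5.86 against 5.66 and 5.77 in starved wild type and 6.97 against 6.62 and 6.80 in phr1. Among wild type roots at +Pi, replicate 3 stood apart upward, with a mean over the 24 members of 5.54 against 4.87 and 5.04, and a chloroplast-encoded mean of 8.10 against 6.81 and 7.18. The 3′ minus 5′ difference of the GAPDH control lay between 0.436 and 1.59 and that of actin between 3.07 and 4.23, and their part in the results was not tested.

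At +Pi, roots and shoots of wild type were not told apart by the 2-fold call: 0 of 24 members were higher and 0 lower in roots, where 11.6% and 11.7% of all probe sets were. The median difference over the members was 0.10, against 0.03 over all probe sets. By the adjusted p alone, cox2 at −0.67 (standard error 0.246, adjusted p = 0.0308) and nad2 at −0.33 (standard error 0.117, adjusted p = 0.0271) were lower in roots. At an unadjusted p under 0.05, 1 member was higher and 3 lower. Means over the members were 5.02, 5.04 and 5.17 in the shoot arrays and 4.87, 5.04 and 5.54 in the root arrays. The last is replicate 3, which stood apart. An absent call does not show that the organs have the same level.

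Pi starvation of wild type moved the 2 organs apart. In shoots, 8 of 24 members were higher at −Pi and 1 was lower, where 8.26% of all probe sets were called higher and 7.95% lower, and the median member changed by 0.47 against −0.04 over all probe sets. In roots, 0 members were higher and 4 were lower, where the shares of all probe sets were 3.05% and 1.64%, and the median member changed by −0.46 against −0.01. By the adjusted p alone, 10 members were higher and 1 lower in shoots (15.9% and 21.1% of all probe sets), and 0 higher and 9 lower in roots (6.55% and 5.52%). The root count rests on the fed replicate 3 that stood apart: without that array only rps3/rpl16 was lower, without fed replicate 1 it was 7 members, and without starved replicate 3 it was 2. The difference between the organs was tested directly as the change in roots minus the change in shoots. It was below 0 for 13 members past the 2-fold call and above 0 for 0, where 5.82% and 4.68% of all probe sets were called so, and its median over the members was −1.41 against 0.06.

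**Figure D1:**
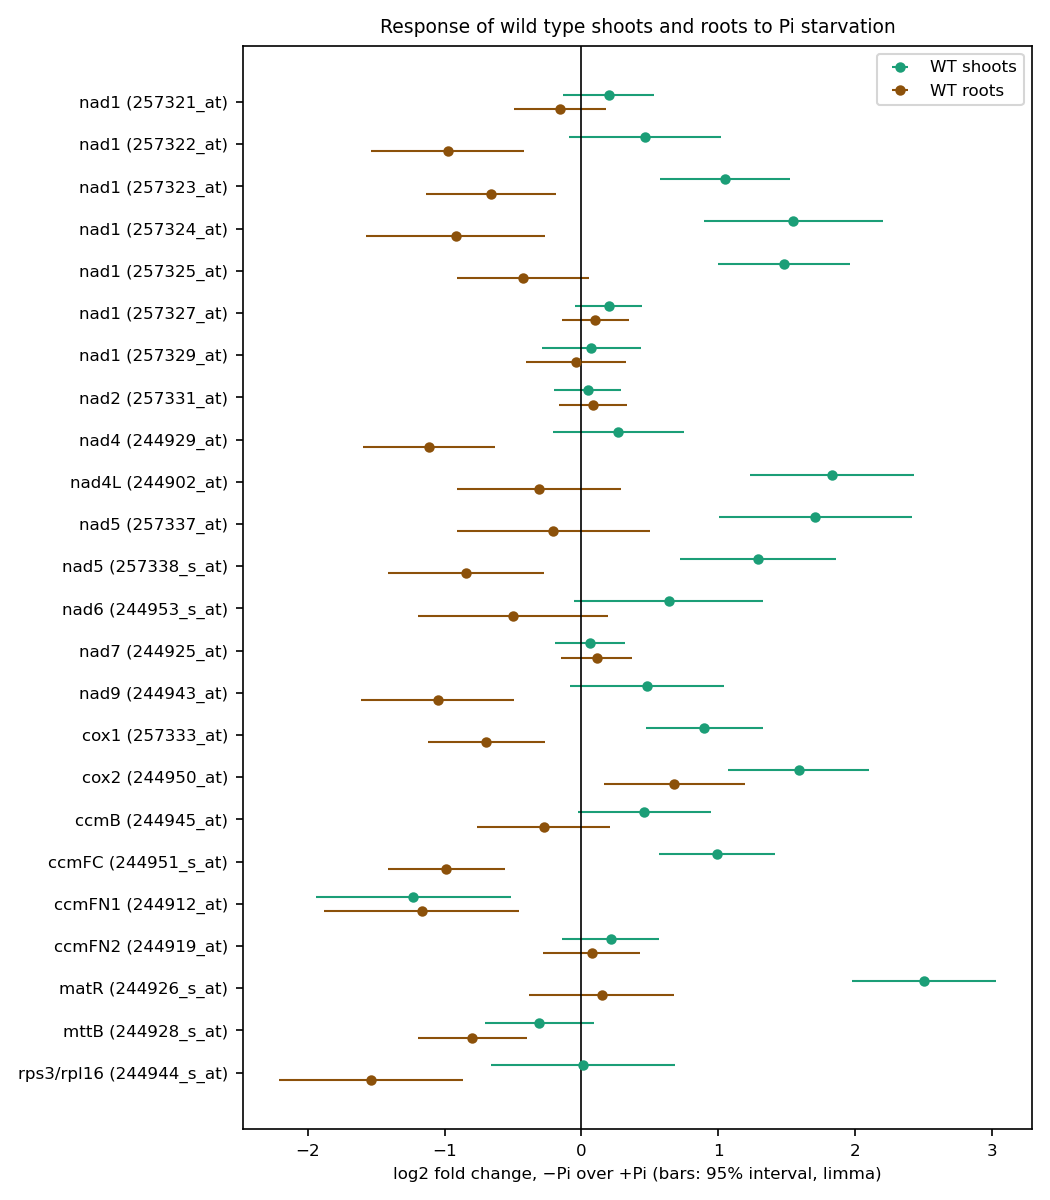
Log2 fold change of each of the 24 members at −Pi over +Pi, in wild type shoots and wild type roots (points; bars are 95% intervals from the limma fit over 24 arrays). Shoot values lie to the right of root values for 21 of 24 members, and matR has the highest shoot value, 2.50.

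In both mutants 12 to 14 of the 24 members exceeded wild type at −Pi in each organ. In phr1, 12 of 24 were higher and 1 lower in shoots, where 6.48% and 6.63% of all probe sets were, and 12 were higher and 0 lower in roots, where only 1.49% and 0.919% of all probe sets were. In phr1 phl1, 12 were higher and 1 lower in shoots (8.24% and 8.20% of all probe sets), and 14 were higher and 0 lower in roots (3.45% and 2.19%). Median changes over the members were 0.95 and 0.99 in phr1 shoots and roots and 1.0 and 1.15 in phr1 phl1 shoots and roots, where the median over all probe sets lay between −0.03 and 0.03. At the adjusted p alone, the counts higher and lower were 15 and 1 in phr1 shoots (16.9% and 14.9% of all probe sets), 13 and 0 in phr1 roots (2.98% and 2.41%), 19 and 1 in phr1 phl1 shoots (20.6% and 16.4%) and 14 and 0 in phr1 phl1 roots (7.14% and 6.01%). The 2 mutants share the wild type arrays they were compared with, so these counts are not independent of each other. Without the phr1 shoot array with the low chloroplast-encoded mean (replicate 2) 11 members were higher and 1 lower in phr1 shoots, and without that of starved wild type 12 and 1. In 11 members the signal was higher in all 4 comparisons of a mutant with wild type: 4 probe sets of nad1, both of nad5, and those of nad6, nad9, cox1, ccmFC and rps3/rpl16.

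**Figure D2:**
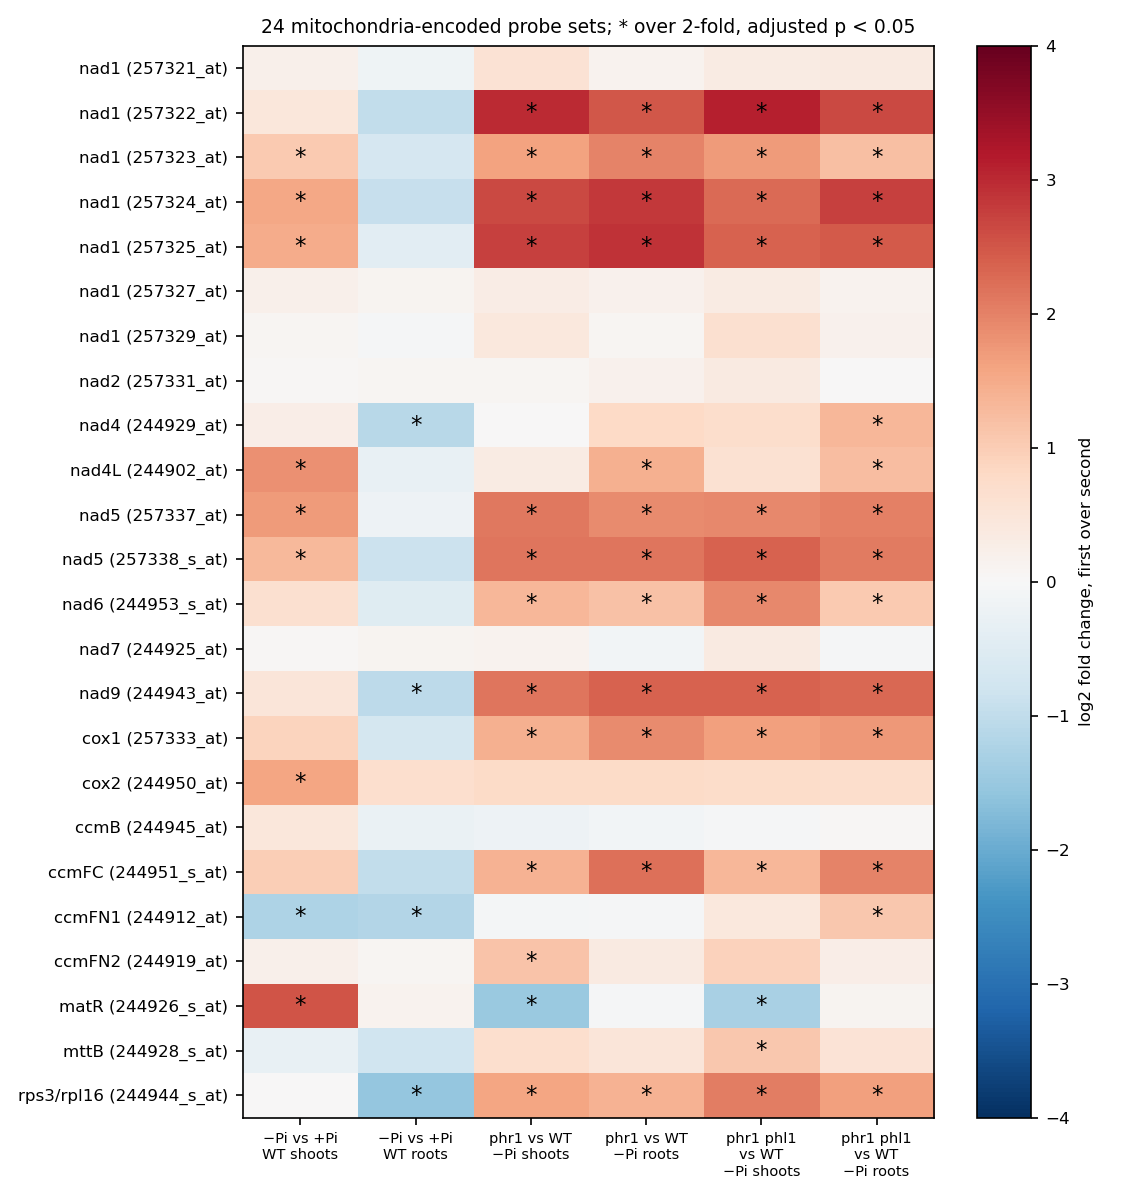
Log2 fold change of the 24 members (rows, ordered by role) in 6 comparisons (columns), from blue for lower to red for higher, with an asterisk where the change is over 2-fold with an adjusted p under 0.05. The 4 mutant columns are red for 11 rows with an asterisk in each, while matR is red in starved wild type shoots and blue in the shoots of both mutants.

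Complex I, the NADH dehydrogenase where electrons enter the respiratory chain, held the largest changes. The core membrane subunit NAD1 is read by 7 probe sets, which fall into those that moved and those that did not. The shoot signals of nad1 (257322_at) were 5.01, 5.14 and 5.39 in wild type at +Pi, 5.21, 6.19 and 5.55 in wild type at −Pi, 8.28, 8.97 and 8.64 in phr1 and 8.51, 9.03 and 8.75 in phr1 phl1. Its root signals were 4.60, 4.73 and 5.40 in wild type at +Pi, 4.08, 3.86 and 3.87 in wild type at −Pi, 6.15, 6.14 and 6.96 in phr1 and 6.40, 6.46 and 6.90 in phr1 phl1. Every mutant array of an organ lay above every wild type array of that organ, while fed and starved wild type overlapped in shoots and did not in roots. Relative to wild type at −Pi, this nad1 probe set was higher by 2.98 (standard error 0.266, adjusted p = 4.44e-08), which is 7.9-fold, in phr1 shoots and by 2.48 (standard error 0.266, adjusted p = 3.63e-06) in phr1 roots. The phr1 phl1 values were 3.11 (standard error 0.266, adjusted p = 1.61e-08) in shoots and 2.66 (standard error 0.266, adjusted p = 5.16e-07) in roots. In wild type, starvation changed it by 0.47 (95% interval −0.09 to 1.02, adjusted p = 0.193) in shoots and −0.98 (95% interval −1.54 to −0.42, adjusted p = 0.0192) in roots.

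In nad1 (257324_at), the shoot signals were 5.24, 5.55 and 5.47 in wild type at +Pi, 6.73, 7.26 and 6.92 in wild type at −Pi, 9.40, 9.70 and 9.75 in phr1 and 8.97, 9.31 and 9.43 in phr1 phl1. For the roots they were 5.48, 5.21 and 6.95 in wild type at +Pi, 4.85, 4.86 and 5.17 in wild type at −Pi, 7.57, 7.75 and 8.07 in phr1 and 7.32, 7.55 and 8.18 in phr1 phl1. Each shoot group stood clear of the next except the 2 mutants, and fed and starved wild type roots did not overlap, with fed replicate 3 above both its partners. It rose with starvation in wild type shoots by 1.55 (standard error 0.313, adjusted p = 0.000524) and was −0.92 in roots (adjusted p = 0.0645). The mutant changes were 2.65 and 2.83 in phr1 shoots and roots and 2.27 and 2.72 in phr1 phl1, with a highest adjusted p of 7.51e-06. The neighbouring probe set nad1 (257325_at) gave shoot signals of 4.50, 4.32 and 4.35 in wild type at +Pi, 5.60, 6.24 and 5.78 in wild type at −Pi, 8.39, 8.66 and 8.80 in phr1 and 7.83, 8.55 and 8.27 in phr1 phl1, and root signals of 4.55, 4.12 and 4.75 in wild type at +Pi, 3.98, 4.08 and 4.08 in wild type at −Pi, 6.82, 7.05 and 6.96 in phr1 and 6.20, 6.16 and 7.14 in phr1 phl1. It too stepped up from fed to starved wild type shoots, by 1.48 (standard error 0.231, adjusted p = 3.56e-05), and again in the mutants. In roots its wild type groups lay close together and both mutants lay above them, by 2.90 (standard error 0.231, adjusted p = 7.36e-08) in phr1 and 2.45 (standard error 0.231, adjusted p = 2.25e-07) in phr1 phl1.

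A dimmer nad1 probe set (257323_at) had shoot signals of 3.12, 3.02 and 3.29 in wild type at +Pi, 4.23, 4.45 and 3.89 in wild type at −Pi, 5.18, 5.84 and 6.36 in phr1 and 5.70, 5.77 and 6.21 in phr1 phl1 and root signals of 2.98, 3.48 and 3.60 in wild type at +Pi, 2.72, 2.67 and 2.68 in wild type at −Pi, 4.46, 4.71 and 4.86 in phr1 and 4.03, 3.85 and 3.81 in phr1 phl1. Its order of groups was that of the brighter ones, with phr1 phl1 roots between wild type and phr1 roots. The change at −Pi in wild type shoots was 1.05 (standard error 0.227, adjusted p = 0.000986), and it lost the 2-fold call without replicate 2 of either wild type shoot group, at 0.99 without the fed and 0.92 without the starved array. Both mutants were higher in shoots (1.61 and 1.70) and in roots (1.99 and 1.21), each with an adjusted p of at most 0.000819. The other 3 nad1 probe sets passed the 2-fold call in no comparison. Signals of nad1 (257321_at) lay between 4.46 and 5.41 over the 24 arrays, those of nad1 (257327_at) between 3.35 and 4.28 and those of nad1 (257329_at) between 3.23 and 4.43. Which exon or intron of nad1 each probe set reads is not given in the sources used here.

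For nad5, another proton-pumping membrane subunit whose mRNA is trans-spliced, both probe sets moved. In shoots, nad5 (257338_s_at) gave 4.60, 4.32 and 5.02 in wild type at +Pi, 5.67, 6.26 and 5.88 in wild type at −Pi, 7.87, 8.47 and 7.90 in phr1 and 7.97, 8.09 and 8.79 in phr1 phl1. Its values in roots were 4.79, 4.79 and 5.34 in wild type at +Pi, 4.06, 4.47 and 3.87 in wild type at −Pi, 6.05, 6.03 and 6.77 in phr1 and 6.03, 6.01 and 6.60 in phr1 phl1. In shoots the groups rose in the order fed wild type, starved wild type and mutants, with the 2 mutants overlapping, and in roots starved wild type was lowest. The changes were 1.29 (standard error 0.272, adjusted p = 0.000778) in wild type shoots at −Pi, 2.14 (standard error 0.272, adjusted p = 3.84e-06) in phr1 shoots and 2.15 (standard error 0.272, adjusted p = 2.95e-05) in phr1 roots. In phr1 phl1 it was higher by 2.35 in shoots and 2.08 in roots, and in wild type roots at −Pi it changed by −0.84 (adjusted p = 0.0492). The shoot values of nad5 (257337_at) were 3.61, 4.11 and 4.19 in wild type at +Pi, 5.35, 6.14 and 5.55 in wild type at −Pi, 7.47, 8.26 and 7.67 in phr1 and 7.16, 7.80 and 7.89 in phr1 phl1, and those of roots were 3.90, 3.99 and 4.43 in wild type at +Pi, 3.69, 4.26 and 3.76 in wild type at −Pi, 5.58, 5.48 and 6.31 in phr1 and 5.36, 5.60 and 6.81 in phr1 phl1. This probe set rose in wild type shoots by 1.71 (standard error 0.337, adjusted p = 0.000406) and changed by −0.20 (95% interval −0.91 to 0.50, adjusted p = 0.785) in wild type roots, where the groups overlapped. It was higher by 2.12 and 1.89 in phr1 shoots and roots and by 1.93 and 2.02 in phr1 phl1.

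The peripheral arm subunit NAD9 showed a mutant change of like size in the 2 organs. Shoot arrays read 4.84, 4.85 and 4.92 in wild type at +Pi, 5.37, 5.10 and 5.58 in wild type at −Pi, 7.44, 7.20 and 7.84 in phr1 and 7.61, 8.33 and 7.15 in phr1 phl1 for nad9. Root arrays read 4.41, 4.99 and 5.51 in wild type at +Pi, 3.75, 4.29 and 3.72 in wild type at −Pi, 6.31, 6.26 and 6.25 in phr1 and 5.98, 6.22 and 6.48 in phr1 phl1. No mutant array overlapped a wild type array of its organ. Against wild type at −Pi, nad9 was higher by 2.15 (standard error 0.268, adjusted p = 3.06e-06) in phr1 shoots, 2.36 (standard error 0.268, adjusted p = 7.78e-06) in phr1 roots, 2.35 (standard error 0.268, adjusted p = 7.02e-07) in phr1 phl1 shoots and 2.31 (standard error 0.268, adjusted p = 3.56e-06) in phr1 phl1 roots. With starvation nad9 changed by 0.48 in wild type shoots (adjusted p = 0.185) and was lower in wild type roots by −1.05 (standard error 0.268, adjusted p = 0.0127). The root call was lost in 3 of 6 fits with an array left out, among them that without fed replicate 3 (−0.78, adjusted p = 0.0978).

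The membrane subunit gene nad6 was dim in wild type. Its shoot signals were 3.89, 3.99 and 4.17 in wild type at +Pi, 4.31, 4.85 and 4.80 in wild type at −Pi, 5.50, 6.73 and 5.73 in phr1 and 6.24, 6.46 and 6.98 in phr1 phl1, and its root signals were 4.08, 3.78 and 5.22 in wild type at +Pi, 3.70, 4.12 and 3.75 in wild type at −Pi, 4.65, 4.93 and 5.52 in phr1 and 5.02, 4.96 and 4.77 in phr1 phl1. Both mutants lay above starved wild type in each organ, but fed root replicate 3, at 5.22, lay among the mutants. The changes in shoots were 1.34 (standard error 0.331, adjusted p = 0.00357) in phr1 and 1.91 (standard error 0.331, adjusted p = 0.000104) in phr1 phl1, and the phr1 value was under 2-fold, at 0.97 (adjusted p = 0.0272), without phr1 replicate 2. Those in roots, 1.18 (standard error 0.331, adjusted p = 0.0411) and 1.06 (standard error 0.331, adjusted p = 0.0388), were close to the threshold, and each lost its call in 5 of 6 fits with an array left out.

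A pair of complex I genes, nad4 and nad4L, followed other courses. NAD4L, a small membrane subunit, read 4.77, 4.71 and 4.87 in wild type at +Pi, 6.37, 6.78 and 6.69 in wild type at −Pi, 6.35, 7.57 and 6.94 in phr1 and 6.81, 7.27 and 7.57 in phr1 phl1 in shoots. In roots it read 4.14, 4.81 and 5.44 in wild type at +Pi, 4.55, 4.68 and 4.24 in wild type at −Pi, 5.77, 5.74 and 6.19 in phr1 and 5.65, 5.68 and 5.87 in phr1 phl1. Starved wild type shoots lay above fed ones with no overlap, phr1 overlapped starved wild type in shoots and phr1 phl1 lay just above it, and in roots both mutants lay above all wild type arrays. It rose with starvation in wild type shoots by 1.83 (standard error 0.286, adjusted p = 3.55e-05), a 3.56-fold change, and changed by −0.31 (95% interval −0.91 to 0.29, adjusted p = 0.576) in roots. In phr1 it differed from wild type at −Pi by 0.34 (95% interval −0.26 to 0.93, adjusted p = 0.442) in shoots and was higher in roots by 1.41 (standard error 0.286, adjusted p = 0.0038), and in phr1 phl1 roots it was higher by 1.24 (standard error 0.286, adjusted p = 0.00478). The difference of these mutant effects between organs did not pass the test, at 1.08 in phr1 (adjusted p = 0.0689) and 0.64 in phr1 phl1 (adjusted p = 0.3).

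NAD4, a large proton-pumping subunit, had a high signal in every group. The nad4 shoot values were 8.18, 8.55 and 8.62 in wild type at +Pi, 8.84, 8.52 and 8.80 in wild type at −Pi, 8.88, 8.68 and 8.68 in phr1 and 9.59, 9.07 and 9.65 in phr1 phl1, with all 3 phr1 phl1 arrays above the rest. The root values were 8.0, 8.59 and 8.98 in wild type at +Pi, 7.55, 7.02 and 7.66 in wild type at −Pi, 8.19, 8.39 and 8.04 in phr1 and 8.86, 9.01 and 8.37 in phr1 phl1. Starved wild type roots were the lowest of all 8 groups and did not overlap another. They lay below fed roots by −1.11 (standard error 0.23, adjusted p = 0.00243), and by −0.88 (adjusted p = 0.0230) without fed replicate 3, under 2-fold. In phr1 phl1 roots nad4 was higher than in starved wild type by 1.34 (standard error 0.23, adjusted p = 0.000332) and in phr1 roots by 0.80 (standard error 0.23, adjusted p = 0.0487). The shoot changes were 0.27 at −Pi, 0.02 in phr1 and 0.72 (standard error 0.23, adjusted p = 0.0182) in phr1 phl1. The remaining complex I members, nad7 and nad2, which code for a peripheral arm and a membrane subunit, passed the 2-fold call nowhere. They were dim, at percentiles 29.7 and 20.8 of the mean signal of all probe sets. Among the comparisons made, the largest differences were 0.43 (standard error 0.123, adjusted p = 0.0137) for nad7 and 0.42 (standard error 0.117, adjusted p = 0.0127) for nad2, both between phr1 phl1 shoots and fed wild type shoots. Against starved wild type shoots they were 0.37 and 0.37.

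**Figure D3:**
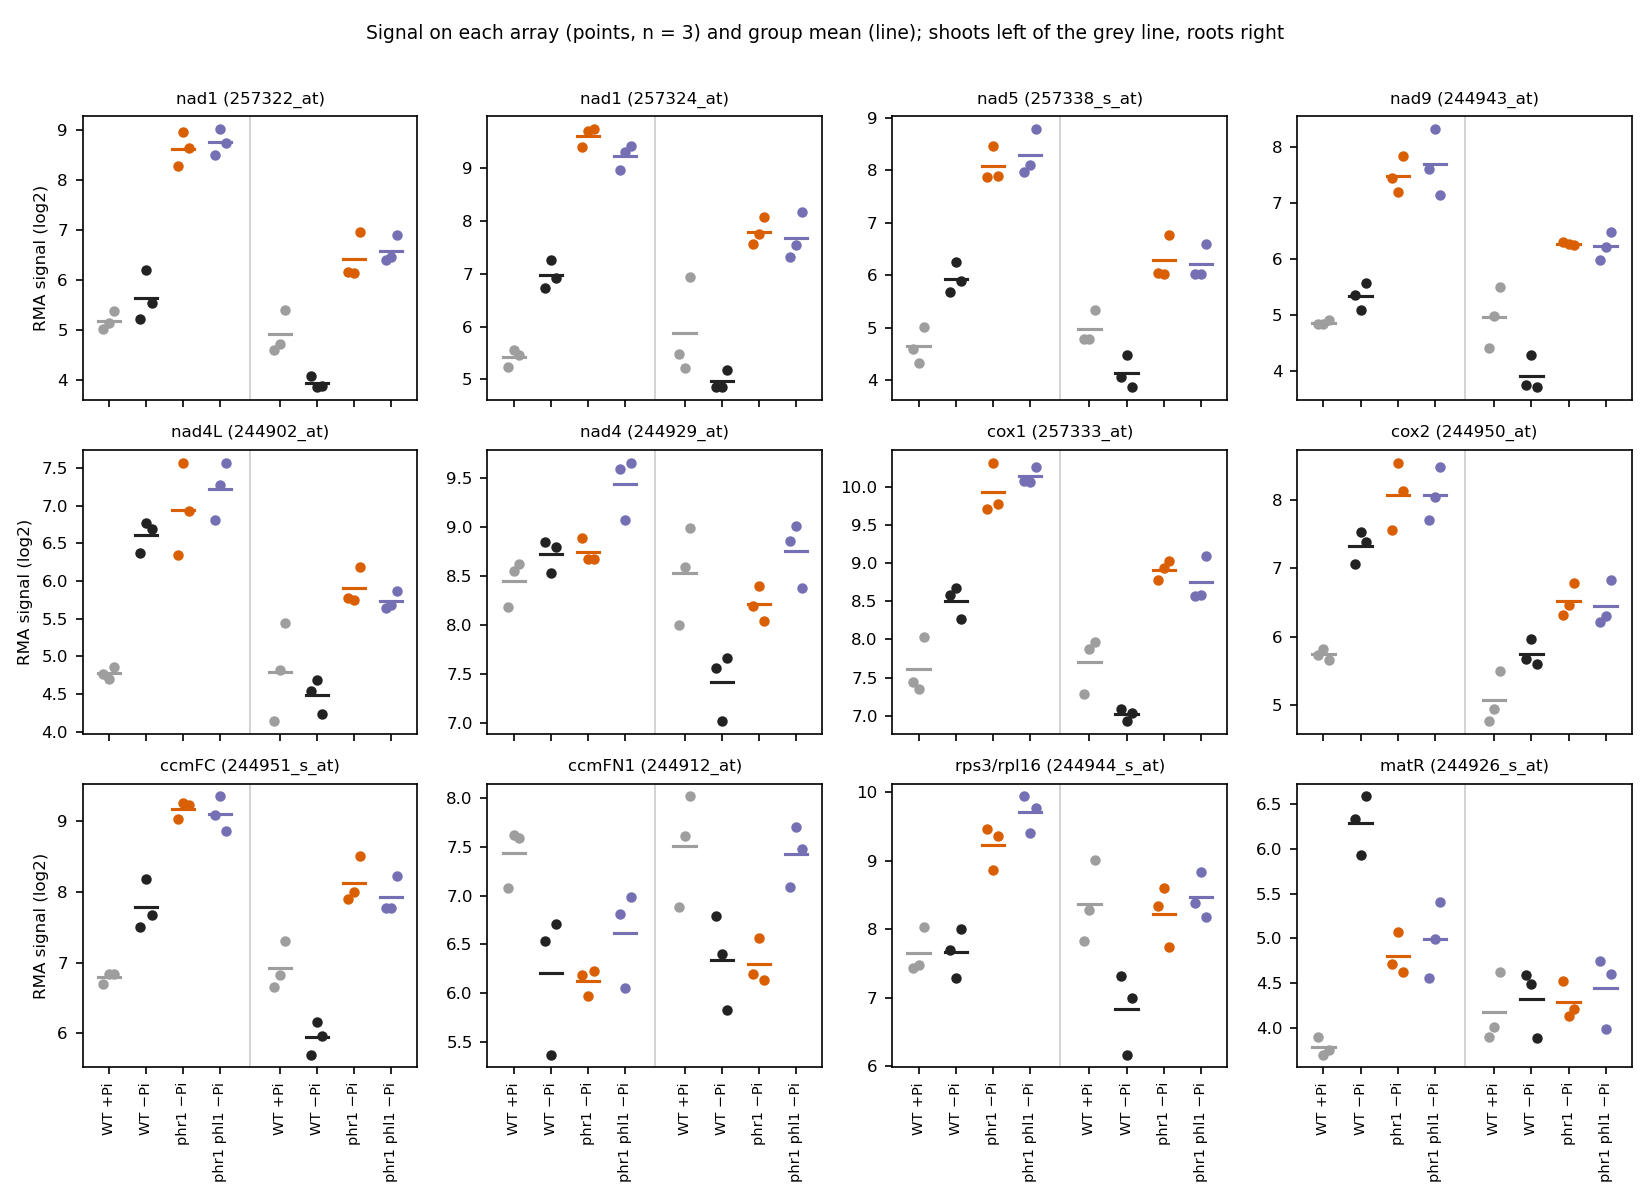
RMA signal (log2) of 12 members on each of the 24 arrays, by group, with shoots left and roots right of the grey line (points: arrays, 3 in each group; bars: group means). For nad1 and nad5 the probe sets shown are those with the widest range of group means. In these, and in nad9, cox1 and ccmFC, both mutants stand above starved wild type in each organ. matR is highest in starved wild type shoots, and ccmFN1 is highest in fed wild type of both organs and in phr1 phl1 roots.

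Complex IV, cytochrome c oxidase, passes electrons to oxygen, and cox1 codes for its heme-copper core. The cox1 signals in shoots were 7.44, 7.35 and 8.03 in wild type at +Pi, 8.58, 8.67 and 8.27 in wild type at −Pi, 9.71, 10.32 and 9.78 in phr1 and 10.09, 10.07 and 10.27 in phr1 phl1. In roots they were 7.28, 7.88 and 7.97 in wild type at +Pi, 7.08, 6.93 and 7.03 in wild type at −Pi, 8.77, 8.93 and 9.03 in phr1 and 8.57, 8.59 and 9.10 in phr1 phl1. Mutant arrays lay above wild type ones in each organ, and wild type moved up with starvation in shoots and down in roots. The changes in the mutants were 1.43 (standard error 0.205, adjusted p = 1.6e-05) and 1.90 (standard error 0.205, adjusted p = 4.08e-06) in phr1 shoots and roots, and 1.63 (standard error 0.205, adjusted p = 2.34e-06) and 1.74 (standard error 0.205, adjusted p = 4.49e-06) in phr1 phl1. In wild type at −Pi cox1 was higher in shoots by 0.90 (standard error 0.205, adjusted p = 0.00159) and lower in roots by −0.69 (standard error 0.205, adjusted p = 0.0308), both under 2-fold.

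The copper-binding subunit gene cox2 gave another order of groups in roots than cox1. Shoot signals of cox2 were 5.74, 5.82 and 5.66 in wild type at +Pi, 7.06, 7.54 and 7.39 in wild type at −Pi, 7.56, 8.54 and 8.13 in phr1 and 7.70, 8.04 and 8.49 in phr1 phl1, and root signals were 4.77, 4.94 and 5.50 in wild type at +Pi, 5.68, 5.97 and 5.60 in wild type at −Pi, 6.32, 6.46 and 6.79 in phr1 and 6.21, 6.30 and 6.83 in phr1 phl1. Starved wild type lay above fed wild type in both organs with no overlap, and the mutants lay above starved wild type. It rose in wild type shoots by 1.59 (standard error 0.246, adjusted p = 3.37e-05), and the change in wild type roots was 0.68 (standard error 0.246, adjusted p = 0.0838), which did not pass the test. The further step in the mutants was 0.75 (standard error 0.246, adjusted p = 0.024) in phr1 shoots, 0.75 (standard error 0.246, adjusted p = 0.0212) in phr1 phl1 shoots, 0.77 (standard error 0.246, adjusted p = 0.0789) in phr1 roots and 0.70 (standard error 0.246, adjusted p = 0.073) in phr1 phl1 roots.

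Cytochrome c maturation proteins carry heme across the inner membrane and attach it to cytochromes c and c1, and their 4 members went different ways. ccmFC, part of the heme ligation complex, gave 6.70, 6.84 and 6.85 in wild type at +Pi, 7.51, 8.18 and 7.68 in wild type at −Pi, 9.03, 9.27 and 9.23 in phr1 and 9.09, 9.35 and 8.87 in phr1 phl1 in shoots. In roots it gave 6.65, 6.83 and 7.30 in wild type at +Pi, 5.70, 6.16 and 5.96 in wild type at −Pi, 7.90, 8.0 and 8.51 in phr1 and 7.78, 7.78 and 8.23 in phr1 phl1. The 3 shoot steps from fed to starved wild type to mutants did not overlap, and in roots starved wild type was lowest and the mutants highest. It was higher in the mutants by 1.38 (standard error 0.203, adjusted p = 2.06e-05) in phr1 shoots, 2.19 (standard error 0.203, adjusted p = 5.33e-07) in phr1 roots, 1.32 in phr1 phl1 shoots and 1.98 in phr1 phl1 roots. Starvation of wild type moved it by 0.99 (standard error 0.203, adjusted p = 0.000584) in shoots and −0.99 (standard error 0.203, adjusted p = 0.00239) in roots.

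A fragment of the same ligation protein family, ccmFN1, was the one member lower at −Pi in both organs of wild type. Its shoot signals were 7.08, 7.62 and 7.59 in wild type at +Pi, 6.53, 5.37 and 6.71 in wild type at −Pi, 6.19, 5.97 and 6.23 in phr1 and 6.82, 6.05 and 6.99 in phr1 phl1. Its root signals were 6.88, 7.61 and 8.02 in wild type at +Pi, 6.79, 6.40 and 5.83 in wild type at −Pi, 6.20, 6.57 and 6.13 in phr1 and 7.08, 7.71 and 7.48 in phr1 phl1. Fed wild type lay above starved wild type in each organ, phr1 overlapped or lay beside starved wild type, and phr1 phl1 roots overlapped fed wild type. The falls were −1.23 (standard error 0.341, adjusted p = 0.00723) in shoots and −1.16 (standard error 0.341, adjusted p = 0.0289) in roots. Without replicate 2 of starved wild type shoots, the lowest array at 5.37, the shoot value was −0.81 (adjusted p = 0.0624), and the root call was lost in 4 of 6 fits with an array left out. In phr1 it differed from wild type at −Pi by −0.08 (95% interval −0.79 to 0.64, adjusted p = 0.911) in shoots and −0.04 (95% interval −0.75 to 0.67, adjusted p = 0.983) in roots. In phr1 phl1 roots it was higher by 1.08 (standard error 0.341, adjusted p = 0.0395), a call also lost in 4 of 6 such fits.

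The companion gene ccmFN2 was higher in phr1 shoots by 1.14 (standard error 0.17, adjusted p = 2.45e-05) and in phr1 phl1 shoots by 0.91 (standard error 0.17, adjusted p = 0.000227). Shoot signals of ccmFN2 were 4.49, 4.0 and 4.32 in wild type at +Pi, 4.47, 4.68 and 4.31 in wild type at −Pi, 5.46, 5.87 and 5.56 in phr1 and 5.13, 5.28 and 5.78 in phr1 phl1, and both mutants lay above wild type. Over the 12 root arrays it lay between 3.84 and 4.68, and no root comparison passed the test. ccmB, a membrane subunit of a transporter in this pathway, passed the test in no comparison: its signals lay between 4.72 and 5.82 and its largest change was 0.46 (95% interval −0.03 to 0.95, adjusted p = 0.136), in wild type shoots at −Pi.

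The ribosomal proteins are represented by 1 probe set for rps3/rpl16, genes that neighbour each other and lie beside nad9 in the RefSeq annotation. Its shoot signals were 7.43, 7.48 and 8.04 in wild type at +Pi, 7.70, 7.29 and 8.0 in wild type at −Pi, 9.46, 8.86 and 9.36 in phr1 and 9.94, 9.41 and 9.77 in phr1 phl1. Its root signals were 7.82, 8.27 and 9.0 in wild type at +Pi, 7.32, 6.17 and 7.0 in wild type at −Pi, 8.33, 8.60 and 7.74 in phr1 and 8.38, 8.84 and 8.17 in phr1 phl1. The fed and starved wild type shoots overlapped, both mutants lay above them, and starved wild type roots lay below every other root group. The rps3/rpl16 signal changed at −Pi by 0.01 (95% interval −0.66 to 0.68, adjusted p = 0.986) in wild type shoots and was lower by −1.54 (standard error 0.322, adjusted p = 0.00271) in roots, the largest root fall of the members. In the mutants it was higher by 1.57 (standard error 0.322, adjusted p = 0.000702) and 2.04 (standard error 0.322, adjusted p = 3.53e-05) in shoots, and by 1.40 (standard error 0.322, adjusted p = 0.011) and 1.63 (standard error 0.322, adjusted p = 0.00129) in roots. The phr1 root call was lost in 2 of 6 fits with an array left out.

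The last pair of genes codes for neither a respiratory nor a ribosomal protein. The maturase gene matR lies within the last intron of nad1 and codes for a protein that takes part in group II intron splicing. Its shoot signals were 3.90, 3.70 and 3.75 in wild type at +Pi, 6.34, 5.94 and 6.59 in wild type at −Pi, 4.71, 5.08 and 4.63 in phr1 and 4.56, 5.0 and 5.41 in phr1 phl1, and starved wild type stood above all other groups. Its root signals were 3.90, 4.01 and 4.63 in wild type at +Pi, 4.59, 4.49 and 3.89 in wild type at −Pi, 4.52, 4.14 and 4.21 in phr1 and 4.75, 3.98 and 4.61 in phr1 phl1, and all 4 root groups overlapped. In wild type shoots matR rose with starvation by 2.50 (standard error 0.252, adjusted p = 1.58e-07), a 5.67-fold change and the largest rise of the members there, while in roots it changed by 0.15 (95% interval −0.38 to 0.68, adjusted p = 0.793). In shoots it was lower than starved wild type by −1.48 (standard error 0.252, adjusted p = 0.000106) in phr1 and by −1.30 (standard error 0.252, adjusted p = 0.000326) in phr1 phl1. The mutant differences in roots were −0.04 (95% interval −0.56 to 0.49, adjusted p = 0.98) and 0.12 (95% interval −0.41 to 0.65, adjusted p = 0.876). matR was the one member whose mutant effect differed between organs by the 2-fold call, at 1.44 (standard error 0.356, adjusted p = 0.00621) in phr1 and 1.42 (standard error 0.356, adjusted p = 0.00579) in phr1 phl1, for roots minus shoots. Of all probe sets, 6.18% were called above and 5.17% below 0 in this test for phr1 (7.75% and 6.01% for phr1 phl1), against 1 and 0 of the 24 members in each. At the adjusted p alone ccmFN2 was below 0 in phr1, at −0.77 (standard error 0.24, adjusted p = 0.0286).

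mttB, a membrane protein related to the Tat protein transporter, was higher in phr1 phl1 shoots by 1.08 (standard error 0.191, adjusted p = 0.000119), and in phr1 shoots by 0.68 (standard error 0.191, adjusted p = 0.00882), under 2-fold. The phr1 phl1 value, the one call of mttB, was under 2-fold with array weights (0.94, adjusted p = 0.000307) and without phr1 phl1 replicate 3 (0.95, adjusted p = 0.00120). Its shoot signals were 5.80, 5.49 and 5.71 in wild type at +Pi, 5.58, 5.25 and 5.25 in wild type at −Pi, 6.19, 5.97 and 5.96 in phr1 and 6.45, 6.18 and 6.71 in phr1 phl1. The mutant arrays all lay above the wild type arrays there. In wild type roots mttB was lower at −Pi by −0.80 (standard error 0.191, adjusted p = 0.00791), under 2-fold.

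Between phr1 phl1 and phr1 no member passed the 2-fold call. The counts by the 2-fold call were 0 higher and 0 lower in shoots, where 0.207% and 0.563% of all probe sets were called, and 0 higher and 0 lower in roots, where the shares were 0.980% and 0.809%. At an unadjusted p under 0.05, 3 members were higher and 0 lower in shoots, and 2 higher and 1 lower in roots. The largest differences were 1.12 (95% interval 0.41 to 1.84, adjusted p = 0.0748) for ccmFN1 and −0.78 (95% interval −1.25 to −0.30, adjusted p = 0.0625) for nad1 (257323_at) in roots, and 0.69 (95% interval 0.21 to 1.17, adjusted p = 0.177) for nad4 in shoots. The ccmFN1 difference in roots passed the call in 3 other fits, with an adjusted p of 0.0473 with the organs fitted separately, 0.0237 with only the groups compared and 0.00394 with array weights. For nad1 (257322_at) the differences were 0.13 (95% interval −0.42 to 0.69, adjusted p = 0.968) in shoots and 0.17 (95% interval −0.39 to 0.73, adjusted p = 0.94) in roots, and for cox1 0.20 (95% interval −0.23 to 0.63, adjusted p = 0.879) and −0.16 (95% interval −0.59 to 0.27, adjusted p = 0.908). These intervals bound the differences and do not show that the mutants are alike. The leaf marker means given above, from 3 of 15 markers, were higher in phr1 phl1 roots than in phr1 and wild type roots. Chloroplast-encoded means in roots at −Pi were 5.85, 5.19 and 5.55 in wild type and 6.49, 7.05 and 5.75 in phr1. In phr1 phl1 roots they were 6.95, 7.76 and 7.38. Root markers, of which 6 of 12 were matched, had means of 8.42, 8.24 and 8.31 in phr1 phl1 roots and 9.05, 9.14 and 8.98 in phr1 roots. In wild type roots they were 9.03, 8.74 and 8.90 at −Pi and 8.44, 8.06 and 7.54 at +Pi. The part of leaf tissue or of root cell types in the root changes was not tested.

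Signals in the starved mutants also lay above those of fed wild type, in shoots more than in roots by count. Against wild type at +Pi, phr1 shoots at −Pi had 15 members higher and 1 lower, where 4.33% and 3.90% of all probe sets were, and phr1 phl1 shoots had 15 higher and 0 lower, where 3.99% and 3.88% were. The median member differences were 1.78 and 2.18. In roots, 11 were higher and 1 lower in phr1 (3.39% and 1.49% of all probe sets), and 8 higher and 0 lower in phr1 phl1 (3.54% and 1.75%), with medians of 0.56 and 0.45. The largest difference from fed wild type was 4.23 (standard error 0.231, adjusted p = 1.65e-10) for nad1 (257325_at) in phr1 shoots, which is 18.7-fold, and it was 2.47 (standard error 0.231, adjusted p = 3.47e-07) in phr1 roots. rps3/rpl16 and nad6 differed from fed wild type in shoots, by 1.58 and 1.97 in phr1, while in phr1 roots they were −0.14 (95% interval −0.82 to 0.53, adjusted p = 0.852) and 0.68 (95% interval −0.01 to 1.37, adjusted p = 0.205). ccmFN1 was the member below fed wild type in phr1, by −1.30 (standard error 0.341, adjusted p = 0.00734) in shoots and −1.20 (standard error 0.341, adjusted p = 0.0223) in roots, and the root call was lost without any of 4 arrays: fed replicate 2 or 3 and phr1 replicate 1 or 3. These comparisons set genotype and Pi supply against each other at once, and the wild type arrays at −Pi do not enter them.

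**Figure D4:**
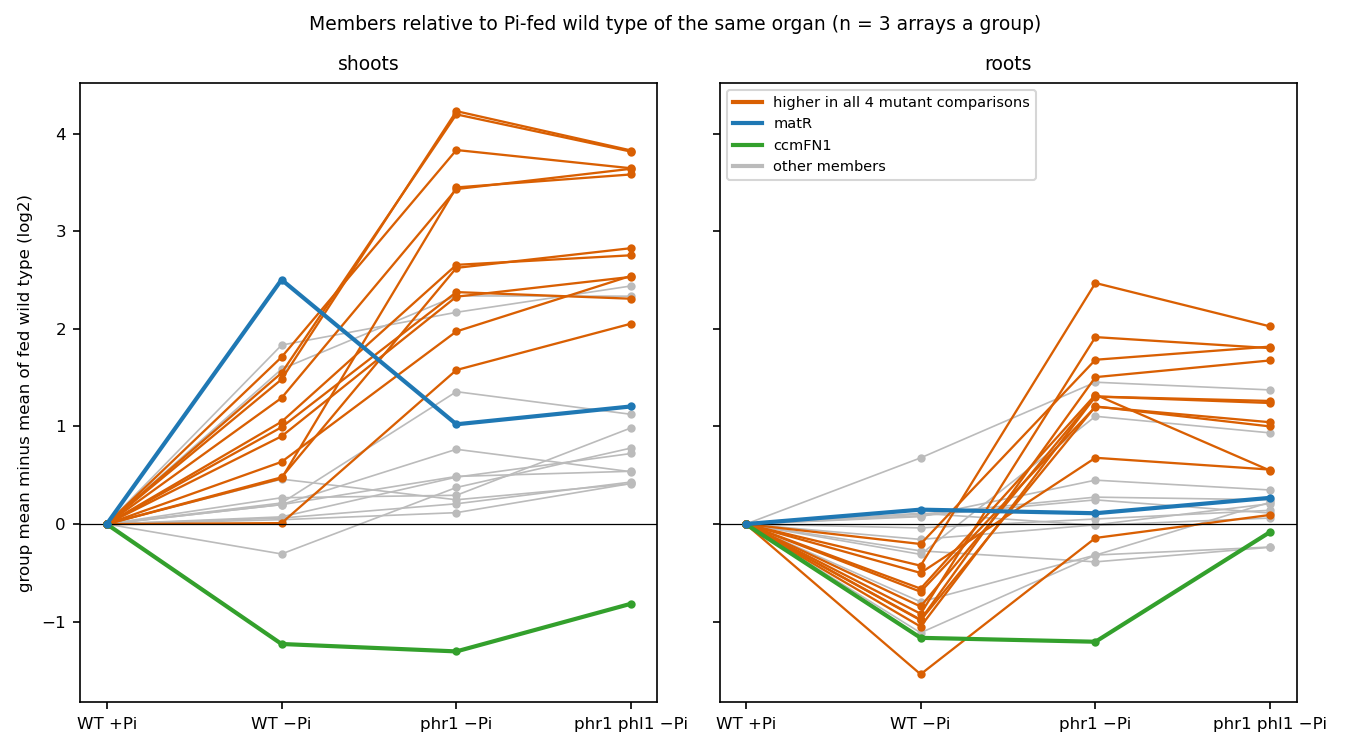
Group mean of each of the 24 members minus its mean in fed wild type of the same organ (log2, 3 arrays in each group), shoots left and roots right. The 11 members higher in all 4 mutant comparisons (orange) lie at or above 0 in starved wild type shoots and below 0 in starved wild type roots, and all lie above starved wild type in both mutants, while matR (blue) peaks in starved wild type shoots and ccmFN1 (green) lies below 0 in the other groups.

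The mean signal over all 24 arrays is given as a description, since it includes the arrays in which called members were high. The 6 members called in none of the first 8 comparisons (3 of nad1, nad2, nad7 and ccmB) had mean signals at percentiles 20.8 to 46.3 of all probe sets, and the 18 called in at least 1 lay at percentiles 33.1 to 91.6. Some neighbours in the RefSeq order of protein-coding genes were set side by side, chosen after their values were seen. rpl16 and nad9 neighbour each other, and rps3/rpl16 and nad9 were both lower in starved wild type roots, both higher in both mutants, and without a shoot response to starvation past the test. nad4L lies between cox3 and atp4, and in wild type shoots at −Pi the 3 changes were 1.83 for nad4L, 1.80 for cox3 and 2.13 for atp4, all past the 2-fold call. In phr1 shoots the same genes were 0.34, 2.05 and −0.37, and only that of cox3 passed. The cox3 probe set also matches a nuclear gene, and that of atp4 has its name, orf25, from the study's list alone. ccmFC lies between rpl5 and nad4, and in phr1 roots the changes were 2.19 for ccmFC, 2.21 for rpl5, whose probe set also matches a nuclear gene, and 0.80 for nad4, which was under 2-fold. cox2 and ccmB are neighbours too, and their changes in starved wild type shoots were 1.59 and 0.46, past the test only for cox2. matR and nad5 follow each other, and in phr1 shoots they moved by −1.48 and 2.12.

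Of the nuclear genes for the same organelle that were matched, none passed the test in mutant roots. Lists written from general knowledge were matched: 14 probe sets for respiratory chain subunits and cytochrome c, 5 for alternative NAD(P)H dehydrogenases, 7 for mitochondrial RNA and DNA metabolism and 2 for cytochrome c maturation. The full lists held 25, 13, 26 and 3 genes, so many were not matched. By the adjusted p alone, 0 of these 28 were higher or lower in roots of phr1 and 0 in roots of phr1 phl1, where 13 and 14 of the 24 members were higher. The shares of all probe sets higher and lower by this rule were 2.98% and 2.41% in phr1 roots and 7.14% and 6.01% in phr1 phl1 roots. At such shares few of 28 would pass, more of them in phr1 phl1 than in phr1 roots, and the 0 was not tested against them. With limma's p unadjusted, at under 0.05, 1 of the 28 was higher and 0 lower in phr1 roots, and 1 higher and 2 lower in phr1 phl1 roots. In shoots the lists differed among themselves, and the counts that follow are by the adjusted p alone, for which the shares of all probe sets higher and lower were 16.9% and 14.9% in phr1, 20.6% and 16.4% in phr1 phl1 and 15.9% and 21.1% in wild type at −Pi. Of the 14 respiratory chain probe sets, 1 was higher and 3 lower in phr1 and 1 higher and 5 lower in phr1 phl1, led by CYTC-2, a cytochrome c gene, at −1.76 (standard error 0.364, adjusted p = 0.000605), SDH1-1, the flavoprotein of succinate dehydrogenase, at −1.21 (standard error 0.171, adjusted p = 9.92e-06), and FRO1, a complex I subunit, at −1.19 (standard error 0.166, adjusted p = 8.04e-06), all for phr1 phl1. In wild type shoots at −Pi, CYTC-2 had risen by 2.88 (standard error 0.364, adjusted p = 2.93e-06) and the complex I subunit gene AT5G11770 by 1.07 (standard error 0.169, adjusted p = 3.96e-05), and 5 of the 14 were higher and 1 lower. In wild type roots 1 of 14 was higher, CYTC-2 at 1.21 (standard error 0.364, adjusted p = 0.0341), and 0 were lower, where 6.55% and 5.52% of all probe sets were. With lists of 2 to 14 probe sets, the counts were not tested against these shares.

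The list for mitochondrial RNA and DNA metabolism moved otherwise. Most of it was dim: in starved wild type shoots its mean signals lay between 3.40 and 3.95, except for AT5G46920 at 6.95. In wild type shoots at −Pi, 0 of 7 were higher and 3 lower: AT5G14580, the mitochondrial polynucleotide phosphorylase that degrades RNA, at −0.63 (standard error 0.199, adjusted p = 0.017), AT5G15700, a phage-type RNA polymerase of mitochondria and plastids, at −0.54 (standard error 0.113, adjusted p = 0.000808), and OSB1, a DNA-binding protein, at −0.47 (standard error 0.119, adjusted p = 0.00361). In phr1 shoots 4 of 7 were higher and 0 lower, and in phr1 phl1 shoots 5 and 0, with AT5G14580 at 1.17 (standard error 0.199, adjusted p = 0.000105) and 1.08 (standard error 0.199, adjusted p = 0.000197) and AT5G15700 at 0.65 (standard error 0.113, adjusted p = 0.000132) and 0.63 (standard error 0.113, adjusted p = 0.000146). In wild type roots at −Pi the same polymerase and phosphorylase genes were lower, by −0.40 (standard error 0.113, adjusted p = 0.0244) and −0.65 (standard error 0.199, adjusted p = 0.0363). Of the 5 alternative dehydrogenases, which oxidise NAD(P)H without pumping protons, NDB2 rose in starved wild type shoots by 2.26 (standard error 0.316, adjusted p = 1.02e-05) while NDB1 (−0.88) and NDC1 (−0.91) fell, and NDB4 was higher in phr1 shoots by 2.66 (standard error 0.3, adjusted p = 8.22e-07) and in phr1 phl1 shoots by 1.83 (standard error 0.3, adjusted p = 5.5e-05). In the shoots of each mutant 4 of the 5 were higher and 0 lower. For cytochrome c maturation, CCMH was higher by 0.68 (standard error 0.208, adjusted p = 0.0151) in phr1 shoots and G1 (CCME) by 0.42 (standard error 0.143, adjusted p = 0.0303), and 0 of the 2 passed in wild type at −Pi.

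**Figure D5:**
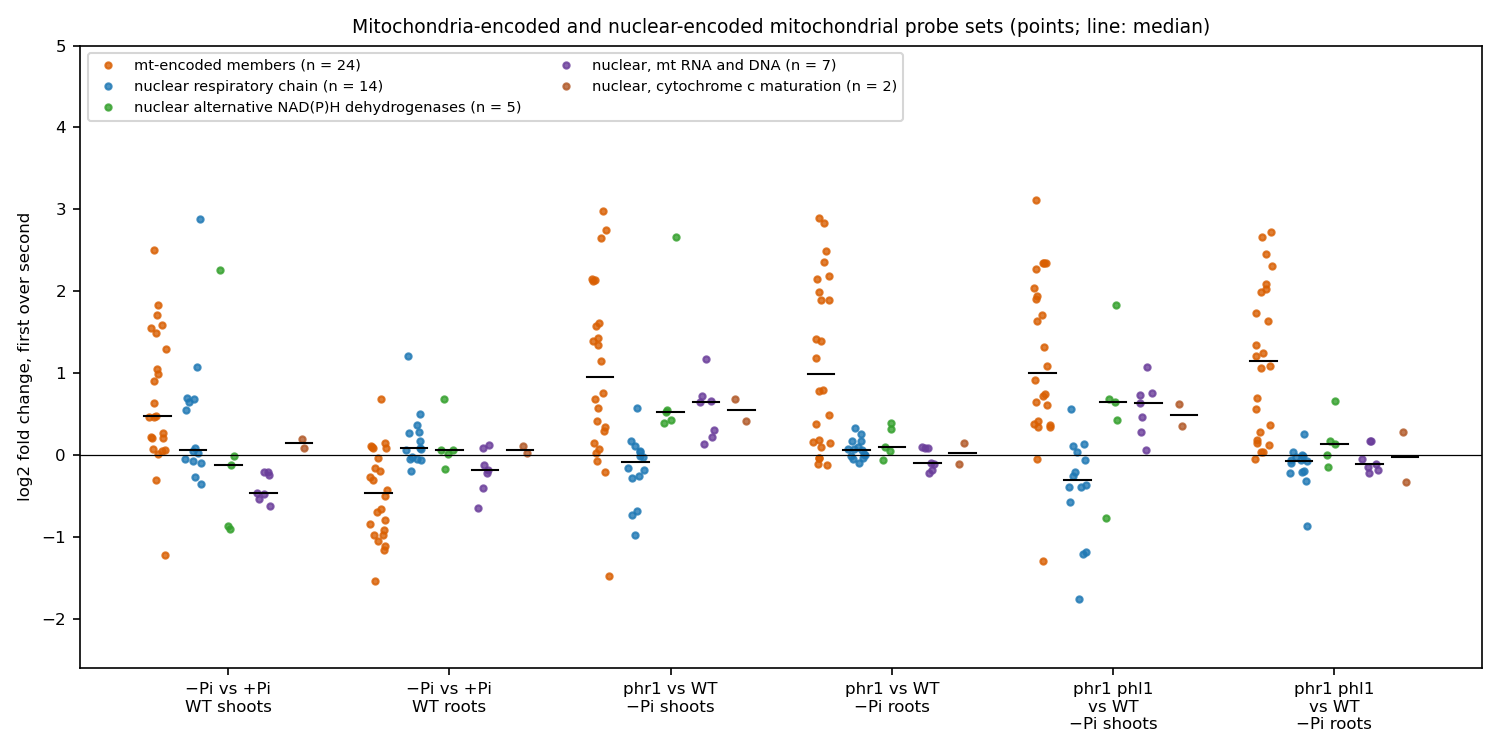
Log2 fold change (points) and median (black line) of the 24 mitochondria-encoded members and of 4 nuclear lists with 14, 5, 7 and 2 probe sets, in 6 comparisons. In the roots of both mutants the nuclear probe sets lie around 0, with medians from −0.11 to 0.14, while the medians of the members are 0.99 and 1.15.

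Chloroplast-encoded transcripts, the other organelle's, are given beside the members. Of 77 probe sets, 0 were higher and 18 lower in wild type shoots at −Pi by the 2-fold call, with a median of −1.07, where the members had 8 higher and 1 lower and all probe sets 8.26% and 7.95%. This fall rests on starved replicate 2, the array with the low chloroplast-encoded mean: without it 1 of 77 was higher and 1 lower, with a median of −0.39. In wild type roots 0 were higher and 43 lower (3.05% and 1.64% of all probe sets), with a median of −1.78. In the mutants, 10 and 24 were higher in shoots of phr1 and phr1 phl1 (6.48% and 8.24% of all probe sets), and 7 and 43 in roots (1.49% and 3.45%), with 0 lower in each. Without the same wild type array the shoot counts were 6 and 11 and the medians −0.08 and 0.44, against 0.59 and 1.20 with it, and the phr1 count was also 6 without phr1 replicate 3. The phr1 phl1 shoot count was 37 without starved wild type replicate 3, and 14 without replicate 1 or replicate 2 of phr1 phl1. In starved against fed wild type shoots the count lower ranged from 10, without fed replicate 3, to 33, without starved replicate 3, over the other fits that each left out an array, and it was 12 without fed replicate 1. These fits were added after the data were seen and cover shoots only, so the root counts have no such check. Among fed wild type roots replicate 3 had the highest chloroplast-encoded mean, 8.10, and phr1 phl1 roots had the higher leaf marker means, 7.43 to 8.22. For the members starved wild type shoot replicate 2 was left out too: without it 7 members were higher and 0 lower in wild type shoots at −Pi, and over the 6 fits that each left out an array of the comparison 7 to 10 were higher.

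The 11 probe sets that match a mitochondrial and a nuclear gene, and the 37 with a mitochondrial name in the held part of the list, cannot be assigned to the mitochondrial genome in the same way, since a large copy of the mitochondrial genome is known from nuclear chromosome 2 of this ecotype and since the list is held in part. The members too were set apart by annotation alone, and signal from such a nuclear copy was not tested for in them. Names ending in s_at, as those of the 11 do, belong to 6 members: nad5 (257338_s_at), nad6, ccmFC, rps3/rpl16, matR and mttB. The shares of all probe sets higher and lower by the 2-fold call were 8.26% and 7.95% in wild type shoots at −Pi and 3.05% and 1.64% in wild type roots, and the shares higher were 6.48% and 1.49% in phr1 shoots and roots and 8.24% and 3.45% in those of phr1 phl1. Of the 11, 4 were higher and 0 lower in wild type shoots at −Pi, 0 and 0 in wild type roots, 8 and 7 were higher in phr1 shoots and roots, and 8 and 7 in phr1 phl1, with 0 lower. They include nad1 (266013_s_at), higher by 3.81 (standard error 0.38, adjusted p = 1.8e-07) in phr1 shoots and 4.0 (standard error 0.38, adjusted p = 6.48e-08) in phr1 phl1 shoots, the largest mutant changes of any of the 72 probe sets, with signals that cannot be divided between the genomes. Genes of other roles among the 11 that were higher in phr1 shoots and roots include rpl5, a ribosomal protein gene, by 2.69 and 2.21, cox3, a cytochrome oxidase subunit gene, by 2.05 and 1.66, and atp1, the alpha subunit gene of ATP synthase, by 1.43 and 1.49. In neither organ of phr1 did 2 of the 11 pass: atp9, a gene for the membrane ring of ATP synthase, at 0.21 and 0.55, and cob, the cytochrome b gene, at 0.44 and 0.79. Of the 37, mostly open reading frames of no known role, 3 were higher and 0 lower in wild type shoots at −Pi, a share like that of all probe sets, and 0 and 2 in wild type roots. The phr1 shoots had 4 of them higher and the phr1 roots 5, and those of phr1 phl1 6 and 4, with 0 lower. orf110b rose in all 4 mutant comparisons, by 3.33 and 1.87 in phr1 and 3.16 and 2.23 in phr1 phl1, as did orf107c (2.09, 1.90, 2.24 and 1.83) and orf240a (1.23, 1.65, 1.16 and 1.32). nad3, a complex I subunit gene of this group, was lower in wild type roots at −Pi by −2.12 (standard error 0.279, adjusted p = 2.32e-05), and higher in phr1 roots by 1.53 (standard error 0.279, adjusted p = 0.00159).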

How the data were processed

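The authors deposited log2 signal values for 22810 probe sets of the ATH1 array on 24 arrays, made with RMA, an algorithm for background correction, normalization across arrays and a summary per probe set. After removal of 64 control probe sets, limma 3.58.1 under R 4.3.3 was used to fit the means of the 8 groups in a single model of 22746 probe sets with 16 residual degrees of freedom. P-values were adjusted by the Benjamini-Hochberg method within each comparison. The study's methods name limma, this adjustment and the 2-fold limit, and leave unstated if the organs shared a model. The number of arrays, 3 in each group, limits the precision, and the table holds no present or absent calls.

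By the annotation, 13513 probe sets have 1 gene, 503 have several and 8730 have no gene. Mitochondrial genes were recognised by the symbols and synonyms that RefSeq TAIR10.1 gives them, and that table was used for names and neighbours only. Sequences are not shown, because no sequence table or genome was used here. Members with a known role are described by role, with every array's value where they pass the 2-fold call in any of the first 8 comparisons, and of each nuclear list at most 4 changed genes are named. The members, lists and tests were chosen with earlier results of these data known.

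Same-numbered replicates were checked for pairing by correlating their deviations from the group means over all probe sets. All 3 numbers correlated above 0.1 for phr1 against wild type in starved shoots alone (0.499, 0.654 and 0.433). Over the members alone these correlations were 0.592, 0.566 and −0.0617. All 3 numbers correlated above 0.1 over the members only for phr1 phl1 against phr1 in starved roots (0.331, 0.657 and 0.412). The changes reported above come from a fit without pairs, and pairing entered only through the replicate block, an alternative that covers all arrays. The alternatives were a replicate block, fits limited to an organ or to the groups compared, removal of the dimmest probe sets, centring of each array on its median, quantile normalization of each organ on its own, a variance with trend and robust estimation, weights for arrays, other thresholds, the wider set of probe sets, and the removal of each array in turn. The fit was tested on simulated data.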

Additional observations from a re-analysis of the deposited data

Results flagged for a closer look

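For 13 members the response of wild type to Pi starvation differed between the organs, tested as the change in roots minus the change in shoots. The differences in log2 were, for complex I, −2.14 for nad4L, −1.38 for nad4, −1.53 for nad9, −1.45 for nad1 (257322_at), −1.71 for nad1 (257323_at), −2.47 for nad1 (257324_at), −1.91 for nad1 (257325_at), −1.91 for nad5 (257337_at) and −2.13 for nad5 (257338_s_at). The others were −1.59 for cox1, −1.98 for ccmFC, −1.55 for rps3/rpl16 and −2.36 for matR. The largest adjusted p of the 13, from limma, was 0.0212, for rps3/rpl16. For matR the effect of the mutations differed between the organs too, by 1.44 in phr1 (adjusted p = 0.00621) and 1.42 in phr1 phl1 (adjusted p = 0.00579), since it was lower than wild type in mutant shoots and within the spread of the arrays in mutant roots. The fed root replicate 3 with the high member mean enters the first of these tests, and 12 to 14 members passed it in the fits that each left out an array (12 without that one).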

How the results depend on the processing

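Of the 65 member changes called in the first 8 comparisons, none reversed under any alternative run. All 65 kept their call with the replicate block, separate fits by organ or comparison, the dimmest probe sets left out, quantile normalization by organ and a robust variance trend, 63 did with median centring (the exceptions were nad6 in the roots of each mutant) and 60 with array weights. The called members lie at percentiles 33.1 to 91.6 of the mean signal, so none was among the dimmest probe sets left out. That setting could change only the fit around them. Leaving out each array in turn gave 390 such tests, and the call was lost in 30, of ccmFN1, mttB, nad1 (257323_at), nad4, nad6, nad9 and rps3/rpl16.

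The counts of members in the 16 comparisons moved as follows. The replicate block raised the members whose phr1 effect in roots minus that in shoots was above 0 from 1 to 2. It changed no other count, those of phr1 against wild type in starved shoots included, at 12 higher and 1 lower. Array weights left 0 members lower in wild type shoots at −Pi and gave 1 (ccmFN1) higher in phr1 phl1 roots than in phr1 roots, as did separate fits by organ (1) and by comparison (1). At 1.5-fold with an adjusted p under 0.1, 1 member was higher and 11 lower in wild type roots at −Pi, and 1 was higher and 1 lower in phr1 phl1 roots than in phr1 roots. By the adjusted p alone, 9 were lower in wild type roots at −Pi and 19 higher in phr1 phl1 shoots. Among the wider set of 72 probe sets, 15 were higher in wild type shoots at −Pi, 24 in phr1 shoots, 24 in phr1 roots, 26 in phr1 phl1 shoots and 25 in phr1 phl1 roots. With each array left out in turn, the members lower in wild type shoots at −Pi ranged from 0 to 1 (0 without starved replicate 2), those lower in wild type roots from 1 (without fed replicate 3) to 7, those below fed wild type in phr1 roots from 0 to 1, and those whose phr1 effect in roots minus that in shoots was above 0 from 1 to 2 (2 without phr1 shoot replicate 2). The cause of these shifts was not tested, beyond the number of probe sets or arrays that a setting uses. No present or absent calls are held, so for the dim members the arrays cannot tell a low level from none.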
